A study of Homo sapiens with 32 samples.

Results

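Strong accessibility in ATAC-seq was concentrated at a small set of windows. The count table of this study lists 212358 windows of about 400 bp, and the strongest 1% of them in control cells, about 2120 windows, are described here. Of these members, 1977 lay at a transcript start and 147 away from one. They were chosen by their CPM (the count in a window divided by the total over all windows of that library, scaled to a total of 1000000), averaged over 8 DMSO libraries. The levels in those libraries are therefore what selected the windows, and they are given as a description with no test. Every member passed the filter on low counts. Merging overlapping members left 2046 regions, because 151 of the windows overlapped another one of the set.

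ATAC-seq uses a transposase, Tn5, that cuts and tags DNA where nucleosomes leave it exposed, so the number of tagged fragments in a window reads how open that stretch of chromatin is. The most open sites of a cell are usually promoters of genes that nearly every cell uses. Such promoters often lie in CpG islands and carry short motifs such as the CCAAT box, which the trimeric factor NFY bends and binds, the GC box of the SP and KLF zinc finger factors, and the sites of NRF1 and of ETS factors. ZNF143 is a zinc finger protein that binds promoters of coding genes and of small nuclear RNA genes. Its long site has a core, preceded by an upstream element that begins with ACTACA. CTCF, a further zinc finger protein, binds mostly at insulators and loop anchors away from promoters.

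The first set of sequences shows CCAAT boxes at 5 of the 10 strongest windows, because this motif was the most frequent one searched. PCDH9, BORA and MYL11, also among these 10, hold the motif within their windows but are not printed. Sequences are hg38, 5′ to 3′ on the strand given, and capitals mark CCAAT followed by C or G and then A or G, or its reverse complement.
TLE4 at chr9:79571699-79571755, minus strand: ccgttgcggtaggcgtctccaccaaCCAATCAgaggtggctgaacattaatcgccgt
BPGM at chr7:134646651-134646707, plus strand: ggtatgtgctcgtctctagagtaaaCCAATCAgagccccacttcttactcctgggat
KLF5 at chr13:73058913-73058969, plus strand: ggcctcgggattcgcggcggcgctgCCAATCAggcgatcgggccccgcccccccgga
PDIA4 at chr7:149028695-149028772, plus strand: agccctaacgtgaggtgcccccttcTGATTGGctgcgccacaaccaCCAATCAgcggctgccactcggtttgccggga
COQ8A at chr1:226940093-226940260, minus strand: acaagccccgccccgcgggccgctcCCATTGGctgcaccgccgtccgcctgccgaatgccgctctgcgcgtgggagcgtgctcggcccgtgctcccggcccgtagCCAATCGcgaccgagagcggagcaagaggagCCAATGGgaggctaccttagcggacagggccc

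The second set shows the upstream element ACTACANNTCC and the ZNF143 core, or their reverse complements, in capitals, because most windows that were lower after dTAGV-1 held one of these forms. DESI2 is among the 10 strongest windows and the other 9 were called lower.
DESI2 at chr1:244652705-244652909, minus strand: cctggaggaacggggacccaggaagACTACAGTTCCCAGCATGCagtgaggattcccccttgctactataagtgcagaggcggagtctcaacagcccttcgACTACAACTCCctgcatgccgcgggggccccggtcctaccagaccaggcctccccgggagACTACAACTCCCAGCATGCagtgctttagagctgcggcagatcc
SLC35B4 at chr7:134316969-134317029, plus strand: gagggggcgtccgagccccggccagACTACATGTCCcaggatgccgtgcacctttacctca
USP5 at chr12:6852374-6852434, minus strand: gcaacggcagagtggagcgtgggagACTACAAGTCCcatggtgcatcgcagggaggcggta
ACTR1A at chr10:102502920-102502980, minus strand: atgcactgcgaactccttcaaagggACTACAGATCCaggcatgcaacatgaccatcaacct
FHIT at chr3:61250055-61250115, minus strand: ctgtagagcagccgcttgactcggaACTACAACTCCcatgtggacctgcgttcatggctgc
ACP6 at chr1:147670571-147670631, plus strand: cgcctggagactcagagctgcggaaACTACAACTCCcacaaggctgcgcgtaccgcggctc
BANP at chr16:87950945-87951148, plus strand: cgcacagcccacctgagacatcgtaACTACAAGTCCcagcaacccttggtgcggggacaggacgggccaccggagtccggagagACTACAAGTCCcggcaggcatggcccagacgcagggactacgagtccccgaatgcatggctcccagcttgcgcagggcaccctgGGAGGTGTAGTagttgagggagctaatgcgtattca
SMIM13 at chr6:11093670-11093738, minus strand: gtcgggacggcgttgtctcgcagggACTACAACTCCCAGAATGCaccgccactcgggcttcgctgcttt
PPP1R12B at chr1:202348432-202348616, plus strand: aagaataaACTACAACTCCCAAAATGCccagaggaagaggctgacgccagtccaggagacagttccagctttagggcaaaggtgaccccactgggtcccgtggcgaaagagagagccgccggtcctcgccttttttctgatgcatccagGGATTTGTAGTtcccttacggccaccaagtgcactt
IFRD1 at chr7:112450831-112450955, plus strand: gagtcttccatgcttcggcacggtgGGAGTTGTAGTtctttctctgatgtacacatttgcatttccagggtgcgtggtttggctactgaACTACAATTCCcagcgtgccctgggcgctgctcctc

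The DESI2, SMIM13 and PPP1R12B windows carry the element and the core joined in 1 run, BANP holds the element 3 times, and SLC35B4, USP5, ACTR1A, FHIT and ACP6 show the element without a core beside it. Windows are named by the nearest transcript start of GENCODE release 44.

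HEK293T is an aneuploid human cell line from embryonic kidney, and the cells used here were 1 clone of it whose ZNF143 protein bears a degron tag. Control cells carry the tag too. dTAGV-1 joins such a tag to a ubiquitin ligase, which marks the tagged protein for degradation. The 2 groups with counts were 8 libraries of cells given DMSO and 8 of cells collected after 30 minutes of 50 nM dTAGV-1, both numbered as replicates 9 to 16. The labels give no time for DMSO. Replicates 1 to 8 entered only through a list of peak summits with no value per library. ZNF143 protein was not analysed here. The labels do not say that libraries came from separate cultures, so p-values measure the spread between these libraries, which may be technical. Of the markers looked up to check the cell label, HOXB9, HOXA9 and PAX2 had windows at their starts with highest mean DMSO levels of 25.4, 23.2 and 9.93 CPM, and the window at LHX1 was listed at 0. PTPRC, CD3E, ALB, KRT5, MYH7 and INS had no window at a start, and none of these markers was in the strongest 1%.

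Library totals ran from 2275856 to 11418578 counts in DMSO and from 3373219 to 13671039 in dTAGV-1. A member window held a median of 490 counts per library in each group, and the lowest count was 15, in DMSO. The members took 7.35% to 13.4% of the counts of a DMSO library, with a median of 12.8% and an SD of 1.97 percentage points (n = 8). In dTAGV-1 libraries the share was 9.42% to 13.2%, with a median of 12.6% and an SD of 1.46 percentage points (n = 8). The counting error of such a share was at most 0.0339 percentage points (95% Wilson interval, which covers counting error only). DMSO replicate 12 held the lowest share, followed by dTAGV-1 replicates 12 and 11 with 9.42% and 9.70% and by DMSO replicate 11 with 11.4%. Without replicates 11 and 12 the shares were 12.9% ± 0.37 and 12.6% ± 0.37 (SD, n = 6 each). DMSO replicate 12 was the lowest DMSO library in 2069 of the members, and results that rest on it are given with and without it.

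**Figure D1:**
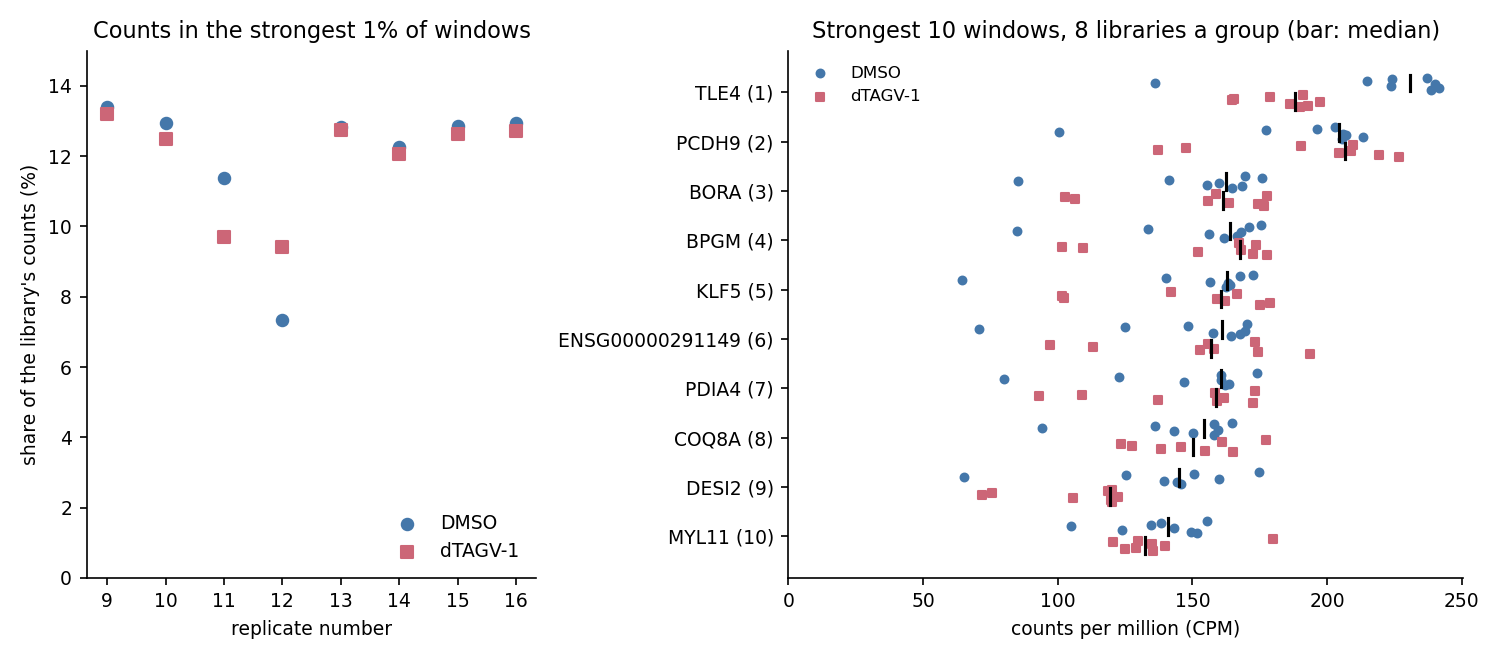
Left, the share of each library's counts (%) that fell in the strongest 1% of windows, by replicate number; right, CPM in each library at the 10 strongest windows, with their rank, where bars are medians of 8 libraries. DMSO replicate 12 is lowest on the left at 7.35% and is the low point of the DMSO group in all 10 windows on the right.

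Mean DMSO levels spanned 39.6 to 219.5 CPM with a median of 50.8 CPM, 23.2 times the median of all windows, 2.19 CPM. The strongest window was 5.54 times as high as the weakest one of the set. At the lower edge, the last windows inside were those at ADAT2, a subunit of a tRNA-editing deaminase, and VDAC3, a channel of the outer mitochondrial membrane. Just outside were windows at ENSG00000285884 and NPHP4, a ciliary protein. These 4 windows all had a mean of 39.6 CPM, so the edge separates windows of nearly equal level.

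The strongest window lay at chr9:79571567-79571967, with its centre 6 bp from a start of TLE4, a corepressor of the Groucho family. Its DMSO libraries ranged from 136 to 242 CPM with a median of 230.6 CPM, and its dTAGV-1 libraries ranged from 165 to 198 CPM with a median of 188 CPM. All 8 dTAGV-1 libraries lay below 7 of the 8 DMSO libraries, whereas DMSO replicate 12 lay below every dTAGV-1 library. Second was chr13:67230318-67230718 at PCDH9, a protocadherin of cell contacts, with DMSO libraries from 101 to 213 CPM (median 204 CPM) and dTAGV-1 libraries from 137 to 227 CPM (median 207 CPM). There the 2 groups overlapped over most of their range. The third and the fifth windows were also on chromosome 13. The third was chr13:72727629-72728029, with its centre in an untranslated region 75 bp from a start of BORA, an activator of the Aurora A kinase. This window also lay at a start of MZT1, a component of the gamma-tubulin ring complex. Its DMSO libraries had a median of 162 CPM and its dTAGV-1 libraries a median of 161 CPM. KLF5, a Krüppel-like transcription factor, had medians of 163 and 161 CPM at chr13:73058682-73059082.

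The fourth window was at BPGM, which makes the bisphosphoglycerate that tunes oxygen binding by haemoglobin (chr7:134646521-134646921, medians of 164 CPM in DMSO and 168 CPM in dTAGV-1). An unnamed gene, ENSG00000291149, had a noncoding exon at the sixth (chr7:143836689-143837089, medians of 161 and 157 CPM). PDIA4, a protein disulfide isomerase of the endoplasmic reticulum, and COQ8A, an atypical kinase of coenzyme Q synthesis, followed with DMSO medians of 161 and 154 CPM and dTAGV-1 medians of 159 and 150.3 CPM. In each of these 4 windows the groups overlapped, and the dTAGV-1 mean was 99.5% to 104% of the DMSO mean. MYL11, a myosin light chain of fast muscle, was the tenth (chr16:30370601-30371001) with DMSO libraries from 105 to 156 CPM and dTAGV-1 libraries from 121 to 180 CPM. DESI2, the ninth, is described with the ZNF143 forms.

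CPM is not corrected for the number of copies of a locus. Windows away from starts within 1 Mb of the TLE4, PCDH9 and MYL11 windows had median levels of 3.33, 3.09 and 3.07 CPM, against 1.93 CPM over all such windows. Around the other 7 of the strongest 10 the medians ran from 1.49 to 2.51 CPM. The MYL11 window had 22 other members within 1 Mb, and the rest of the 10 had 2 to 10. Of all windows at starts, between 2.00% on chromosome 2 and 7.39% on chromosome 3 belonged to the strongest 1%. The part of copy number in the ranking was not tested.

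The strongest windows were almost all at promoters. Of the members, 1977 (93.1%) had their centre within 500 bp of a transcript start, compared with 87.1% of the equally many windows next in rank and 19.0% of all windows. For 1862 of them (87.7%) the start belonged to a protein-coding gene. Coding starts on both strands, the arrangement of a bidirectional promoter, lay within reach of 340 windows (16.0%), against 12% of the windows next in rank and 6.24% of all windows at starts. By annotation, 44.8% of the centres were intergenic and 26.2% intronic. Untranslated regions held 17.9%, exons of noncoding transcripts 9.60% and coding sequence 1.46%. Their median GC content was 63.8% (48.1% over all windows, 62.6% over windows at starts), and the median ratio of observed to expected CpG was 0.816 (0.249 and 0.723).

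A second set of libraries, which the choice did not use, had summits at most of these places. Of the members, 2093 (98.5%) held a summit of the deposited list of replicates 1 to 8, compared with 97.2% of the windows next in rank and 77.8% of all windows. The best summit in such a window stood at a median percentile of 99.2 of that list by the authors' score, and the lowest stood at percentile 59.1.

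The 147 members away from a start had lower medians of level and of CpG. Their median was 46.6 CPM, against 51.1 CPM for those at starts, with a median observed-to-expected CpG of 0.605 against 0.824. Of these, 69 lay over 5000 bp from any start, with a median of 46.5 CPM and a median GC content of 54.6%, and 67 of the 69 held a summit of replicates 1 to 8. The 3 farthest were at chr4:66565258-66565658, 134366 bp from RPS23P3 (40.5 ± 7.09 CPM in DMSO), at chr7:146654090-146654490 in an intron of CNTNAP2, a neuronal adhesion protein, 119981 bp from its start (54.9 ± 8.27 CPM), and at chr3:94179003-94179403, 102028 bp from RBBP4P2 (43.7 ± 8.77 CPM; all SD, n = 8). Chromosome 13, home of 3 of the 5 strongest windows, had 16 of its 65 members away from a start. Chromosome 2 had 0 of 53.

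The CCAAT box was the most frequent of the motifs searched. It occurred within 100 bp of the centre, on either strand, in 1029 windows (48.4%), compared with 30.5% of the windows next in rank, 11.6% of all windows at starts and 7.71% of all windows. Its share fell with rank even within the set, from 62.7% of the strongest 212 windows to 54.2% of ranks 213 to 1062 and 41.0% from rank 1063 to the edge. Over the full window it occurred at 2030 places in 1149 windows, of which 346 had 2 and 212 had 3 or more, with at most 7 in 1 window. Its median position was -79.5 bp relative to the nearest start, where negative is upstream, and 59.3% of the places at starts lay within 150 bp upstream, as in the TLE4, KLF5 and PDIA4 sequences above.

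The other promoter motifs took another course. The GC box GGGGCGGGG was in 19.9% of the windows but in 24.5% of those next in rank, and in 14.6% of the strongest 212. NRF1 sites, GCGCANGCGC, were in 7.20% against 10.7% of those next in rank, and ETS sites, CCGGAAGT, in 5.13% against 7.20%. Each of these 3 was still more frequent than over all windows, where the shares were 3.65%, 0.895% and 0.711%. CTCF sites were in 8 windows (0.377%), below the 3.03% of all windows and the 1.53% of all windows at starts. The AP-1 site TGAGTCA was also scarcer, at 1.04% against 5.76% of all windows, as was TATAAA at 2.4% against 9.38%.

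**Figure D2:**
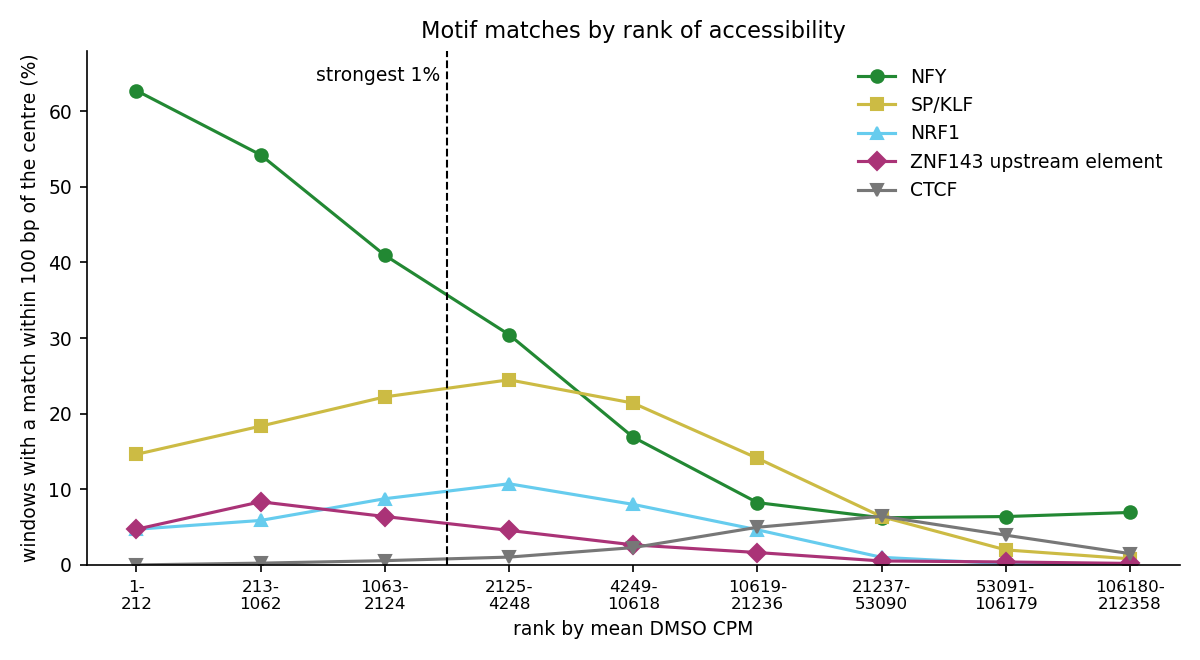
Share of windows (%) with a match to each motif within 100 bp of the centre, by rank of mean DMSO CPM, with the strongest 1% left of the dashed line; ranks of a class are given under each point. NFY matches climb to 62.7% in the strongest 212 windows, while SP/KLF matches peak at 24.5% just below the line and CTCF matches are near 0 on the left.

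The ZNF143 core was found in 42 windows (1.98%), compared with 1.60% of the windows next in rank, 0.604% of all windows and 0.868% of those at starts. The upstream element was found in 149 (7.02%), against 4.57% of the windows next in rank, 0.554% of all windows and 1.60% of all windows at starts. Both forms were in 20 windows. Counting a looser form of the core as well, and over the full window, 263 windows (12.4%) held at least 1 of the forms, compared with 3.71% of all windows. Where they occurred at starts, the upstream element had a median position of -101.5 bp relative to the start and the core of -121.5 bp.

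Promoters of many housekeeping genes were in the set, and their shares are a description. Of 15158 protein-coding genes with any window at a start, 2155 (14.2%) had a member window. Histone genes stood at 22 of 62 (35.5%), splicing and RNA-binding factors at 16 of 53 (30.2%), chaperones at 21 of 72 (29.2%), cell cycle genes at 29 of 114 (25.4%), chromatin remodellers at 16 of 63 (25.4%) and respiratory chain genes at 23 of 104 (22.1%). Translation initiation factors had 9 of 50 (18.0%). Cytosolic ribosomal proteins, among the most transcribed genes of any cell, had 12 of 86 (14%), mitochondrial ribosomal proteins 11 of 78 (14.1%) and proteasome subunits 4 of 36 (11.1%). Genes named ZNF had 46 of 447 (10.3%), HOX genes 0 of 32, and long noncoding RNA genes 501 of 6119 (8.19%). Counts over a list include genes that share 1 bidirectional window, as histone genes often do.

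The leading windows of these lists were well inside the set. COX14, an assembly factor of cytochrome oxidase, stood at 98.1 ± 19.4 CPM in DMSO, and NDUFA11, a subunit of complex I, at 86.9 ± 10.5 CPM. PSMA5, a proteasome core subunit, stood at 84.8 ± 13.2 CPM, HNRNPL, a splicing regulator, at 80.2 ± 10.7 CPM, and the chaperone HSP90B1 of the endoplasmic reticulum at 76.5 ± 9.54 CPM. The immediate-early gene JUN, a subunit of AP-1, was at 80.5 ± 12.9 CPM (SD, n = 8 in each case). Ribosomal proteins began lower, with RPL10 at 67.7 ± 12.8 CPM (rank 405). Among genes that RNA polymerase III or the snRNA machinery transcribes, RNU2-2P (82.9 ± 16.6 CPM), RNU12 (71.3 ± 10.7 CPM) and RPPH1 (69.2 ± 15.2 CPM) led 13 of 155 (8.39%). The first windows of the other lists were those of DNAJB9, a chaperone of the endoplasmic reticulum (77.3 ± 13.1 CPM), MRPL37 of the mitochondrial ribosome (65.8 ± 7.01 CPM), the initiation factor EIF4G2 (65.2 ± 9.79 CPM), the histone gene H2AC25 (71.3 ± 7.63 CPM), ZNF687 (135 ± 27.8 CPM), the histone demethylase KDM4A (87.7 ± 15.1 CPM) and SNHG10 (87.5 ± 17.6 CPM).

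Of the 41 windows that hold the 3 leading genes of the 14 lists, 37 had a dTAGV-1 mean within 1 SD of the DMSO mean, 4 lay further below and 0 further above. The 4 were CDK5 (111 ± 19.1 CPM in DMSO against 66.8 ± 7.59 CPM), MRPL24 (64.4 ± 7.69 against 52.6 ± 3.36 CPM), MRPL50 (63.1 ± 12.1 against 46.3 ± 10.6 CPM) and ARID4B, a chromatin protein (86.0 ± 7.97 against 72.3 ± 7.92 CPM; SD, n = 8 throughout). Of these, CDK5 alone was called.

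After 30 minutes of dTAGV-1 35 of the strongest windows were lower, and the others were not called. The edgeR quasi-likelihood test over all 185040 tested windows, with Benjamini-Hochberg adjustment at 0.05, called 35 of the members lower (1.65%) and 0 higher. The background over all tested windows was 0.213% lower and 0.00108% higher. Of the equally many windows next in rank, 32 (1.51%) were called lower. At an unadjusted p under 0.05, 117 members were lower and 0 higher, while 1.55% of all tested windows were lower and 1.3% higher, and DESeq2 also called 0 members higher. Because the DMSO libraries chose the windows, the choice favours a high DMSO level and lower values in the other group, and the count is a description. When the strongest 1% were chosen by the dTAGV-1 libraries instead, 1995 were shared and 5 were called lower. The share called lower was then close to the 0.213% over all tested windows, so the excess over that background depended on the choice. The dTAGV-1 choice in turn favours a high dTAGV-1 level. Choosing the strongest 1% by all 16 libraries shared 2053 and gave 17 lower calls, a share above that background but below 1.65%. The median log2 fold change of the members was 0.01, as over all tested windows, and the highest was 0.18.

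The count depended on the libraries and the scaling. Without DMSO replicate 12, 97 members were lower (background 0.331%), and without replicates 11 and 12 of both groups 157 were (0.411%). DESeq2 called 57 (0.272%), scaling by library totals 63 (0.268%) and offsets fitted across abundance 123 (0.37%), with the 35 windows included in each of these 5. Of the 35, 30 were kept without dTAGV-1 replicate 11, 31 without DMSO replicate 11 and 33 without dTAGV-1 replicate 12. With no filter on low counts 30 were kept. Groups that did not overlap, with all 8 dTAGV-1 libraries under all 8 DMSO libraries, were seen in 23 members (1.08%; background 0.111%), and in 114 when DMSO replicate 12 was left aside (background 0.259%).

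**Figure D3:**
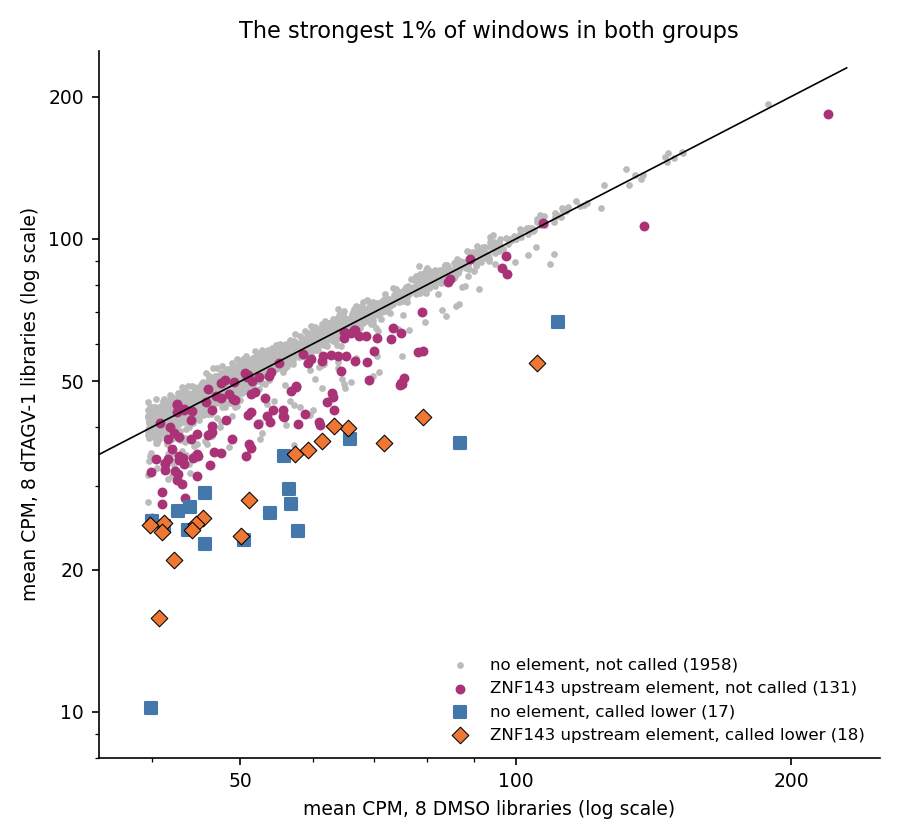
Mean CPM of the 8 dTAGV-1 libraries against that of the 8 DMSO libraries for the strongest 1% of windows, both on log scales, with the line of equal levels. The 35 called lower (squares and diamonds) lie well under the line, and 18 of them hold the upstream element of the ZNF143 site.

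The 35 windows had log2 fold changes from -1.96 to -0.66 with a median of -0.85 and standard errors of 0.14 to 0.17. Their dTAGV-1 means were 25.6% to 63.7% of the DMSO means, with a median of 55.7%. The groups were apart in 19 of the 35, and in all 35 with DMSO replicate 12 left aside. That library was the lowest DMSO library in 33 of them. The calls used these same values, so this is a description and no separate evidence. They were spread through the set, with 3 in the strongest 212 and a median rank of 1088, and 34 of the 35 were at starts.

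The window with the smallest p, at chr1:45499959-45500359, lies between CCDC163 and MMACHC, which processes cobalamin inside cells. It ranged from 29.0 to 44.6 CPM in DMSO (median 41.1 CPM) and from 5.9 to 13.1 CPM in dTAGV-1 (median 10.5 CPM). The groups were far apart, and the log2 fold change was -1.96 (SE 0.15, edgeR adjusted p = 2.7e-12). FHIT, a hydrolase of diadenosine triphosphate, had the one called window away from a start, in an intron at chr3:61249968-61250368, 1216 bp from the start. It ranged from 32.8 to 46.0 CPM in DMSO and from 11.8 to 19.0 CPM in dTAGV-1, with medians of 42.5 and 16.0 CPM. The groups were apart, with a log2 fold change of -1.37 (SE 0.14, edgeR adjusted p = 2.05e-08).

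IFRD2, a ribosome-binding regulator of translation, ranged from 33.8 to 68.3 CPM in DMSO and from 21.8 to 28.6 CPM in dTAGV-1 at chr3:50292336-50292736 (medians 60.7 and 23.1 CPM). PRCC, a nuclear protein known from gene fusions in renal carcinoma, ranged from 69.0 to 99.0 CPM and from 30.0 to 41.8 CPM at chr1:156767160-156767560 (medians 88.5 and 38.2 CPM). Both windows had groups apart, with log2 fold changes of -1.29 (SE 0.15) and -1.23 (SE 0.15). MEN1, which encodes the chromatin adaptor menin, ranged from 36.9 to 65.1 CPM and from 25.0 to 29.9 CPM at chr11:64810485-64810885 (medians 60.2 and 27.6 CPM). HTRA2, a mitochondrial serine protease, ranged from 23.7 to 59.7 CPM and from 17.4 to 28.5 CPM at chr2:74529666-74530066 (medians 54.8 and 23.0 CPM). MEN1 had groups apart and HTRA2 did not, because DMSO replicate 12 at 23.7 CPM lay among its dTAGV-1 libraries.

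The 4 remaining windows of the 10 with the smallest p had log2 fold changes of -1.11 to -1.0. ZFYVE19, a regulator of the abscission checkpoint whose window at chr15:40807371-40807771 also serves the chaperone gene DNAJC17, ranged from 32.1 to 48.3 CPM in DMSO and from 12.5 to 26.7 CPM in dTAGV-1. ENSG00000254553 at chr1:32464756-32465156 ranged from 38.2 to 60.4 CPM and from 23.5 to 32.6 CPM. A pair of adjoining windows at ENSG00000279539, near a start of the kinase GSK3A, ranged from 29.0 to 59.8 CPM and from 20.5 to 26.5 CPM at chr19:42243016-42243416, and from 18.0 to 54.5 CPM and from 20 to 25.2 CPM at chr19:42242615-42243015. Only the last of these 4 had overlapping groups, through DMSO replicate 12 at 18.0 CPM.

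**Figure D4:**
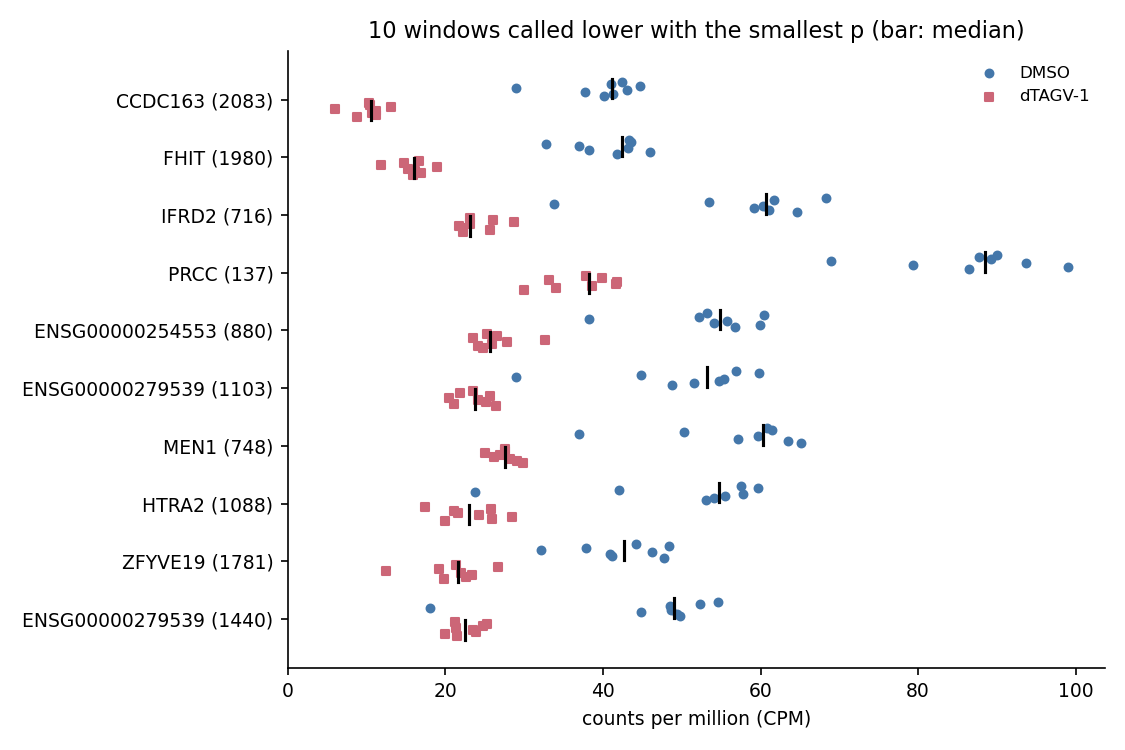
CPM in each library at the 10 called windows with the smallest p, labelled by nearest gene and rank, with bars at the median of 8 libraries per group. In 8 of the 10 all dTAGV-1 points lie left of all DMSO points, and in HTRA2 and the lower of the ENSG00000279539 windows 1 DMSO point, replicate 12, does not.

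The highest-ranked called windows belonged to CDK5, a cyclin-dependent kinase known from neurons (rank 28), and SLC35B4, a nucleotide sugar transporter (rank 43). CDK5 ranged from 65.9 to 126 CPM in DMSO and from 53.8 to 75.2 CPM in dTAGV-1 (log2 fold change -0.74, SE 0.16, edgeR adjusted p = 0.0171). SLC35B4 ranged from 51.8 to 125 CPM and from 41.1 to 60.3 CPM (-0.96, SE 0.17, edgeR adjusted p = 0.0011). In both, DMSO replicate 12 lay among the dTAGV-1 libraries and the other 7 DMSO libraries lay above them all. Called windows also included those of SNAPC3, a subunit of the complex that activates snRNA genes (-0.87, SE 0.16), USP5, a deubiquitinase of free ubiquitin chains (-0.93, SE 0.15), BANP, a factor that binds unmethylated CGCG promoters (-0.88, SE 0.15), and MARS1, the methionyl-tRNA synthetase (-0.66, SE 0.14).

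A few listed genes were among them. Of the protein-coding genes with a member window, 46 of 2155 were called lower, against 233 of all 14689 tested protein-coding genes. RPL36, which shares its window with HSD11B1L, was the 1 cytosolic ribosomal gene of 12 (-0.84), and DNAJC17 the 1 chaperone of 21 (-1.0). CDK5 and CDC26, a subunit of the anaphase-promoting complex (-0.66), were the 2 cell cycle genes of 29. ZNF140 (-0.79) and ZNF337 (-0.71) were the 2 ZNF genes of 46. Over all tested genes of these lists, lower calls numbered 3 of 85 ribosomal, 4 of 69 chaperone, 2 of 114 cell cycle and 32 of 438 ZNF genes. In the lists of histones, splicing factors, respiratory chain, chromatin remodelling, translation initiation, mitochondrial ribosome, proteasome, immediate-early, snRNA and SNHG genes, 0 of the 124 member genes were called by edgeR or by DESeq2, and at an unadjusted p under 0.05 in edgeR 4 were lower and 0 higher, where 5.51% of all members were lower. The median log2 fold changes over the member windows of these lists lay between -0.02 and 0.01.

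The called windows differed from the rest in the ZNF143 forms they held. Of the 149 members with the upstream element, 18 were called lower (12.1%), compared with 17 of the 1975 without it (0.861%). Their median log2 fold change was -0.27 and 91.9% of the values were below 0, against a median of 0.01 and 41.1% below 0 for the rest. Of the 42 with the core, 6 were called and the median was -0.23. Of the 20 with both, 4 were called and the median was -0.40. Over the full window, 27 of the 35 held at least 1 form, including the looser core, and 8 did not: PRCC, MEN1, CALCOCO1, RBM6, ENSG00000254553, the lower-numbered ENSG00000279539 window, PLEKHA1 and CCDC163. CCDC163, the window with the largest change of the set, is one in which none of these letters was found, which says nothing of whether ZNF143 binds there.

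Outside the strongest 1% the share called among windows with the element was 251 of 963 tested (26.1%), against 0.0599% without it. Within the set it was 1 of 10 in the strongest 212, 8 of 71 in ranks 213 to 1062 and 9 of 68 from rank 1063 to the edge. Below the edge it was 19.6% of those next in rank, 40.7% in ranks 21237 to 53090, 35.4% in ranks 53091 to 106179 and 5.44% in the weakest class, ranks 106180 to 212358. The median log2 fold change with the element was -0.13 in the strongest 212, -0.28 and -0.30 in the next classes of the set, and -0.26, -0.53, -0.79 and -0.14 in the same 4 classes below the edge. Whether these shares differ beyond the error of the fits was not tested.

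The same contrast is given here library by library. It uses the same libraries and members as the calls, so it is a description and no separate evidence. The mean log2 CPM of members with the upstream element minus that of members without it was 0.02 ± 0.02 in DMSO, with libraries from -0.01 to 0.05. In dTAGV-1 it was -0.29 ± 0.05, with libraries from -0.38 to -0.24, so the groups were apart. DMSO replicate 12 at 0.05 and dTAGV-1 replicates 11 and 12 at -0.26 and -0.24 lay within their groups. For the core the values were -0.04 ± 0.04 and -0.32 ± 0.06. Members with a CCAAT box moved the other way relative to those without one, from 0.13 ± 0.02 to 0.19 ± 0.02. Among members with no ZNF143 form in the window that difference was 0.14 ± 0.02 in DMSO and 0.15 ± 0.02 in dTAGV-1, and the groups overlapped (SD, n = 8 throughout). Of the 1029 windows with a CCAAT box, 2 were called lower (0.194%), against 33 of 1095 without one (3.01%). Among members with no ZNF143 form in the window the counts were 1 of 946 (0.106%) and 7 of 915 (0.765%).

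**Figure D5:**
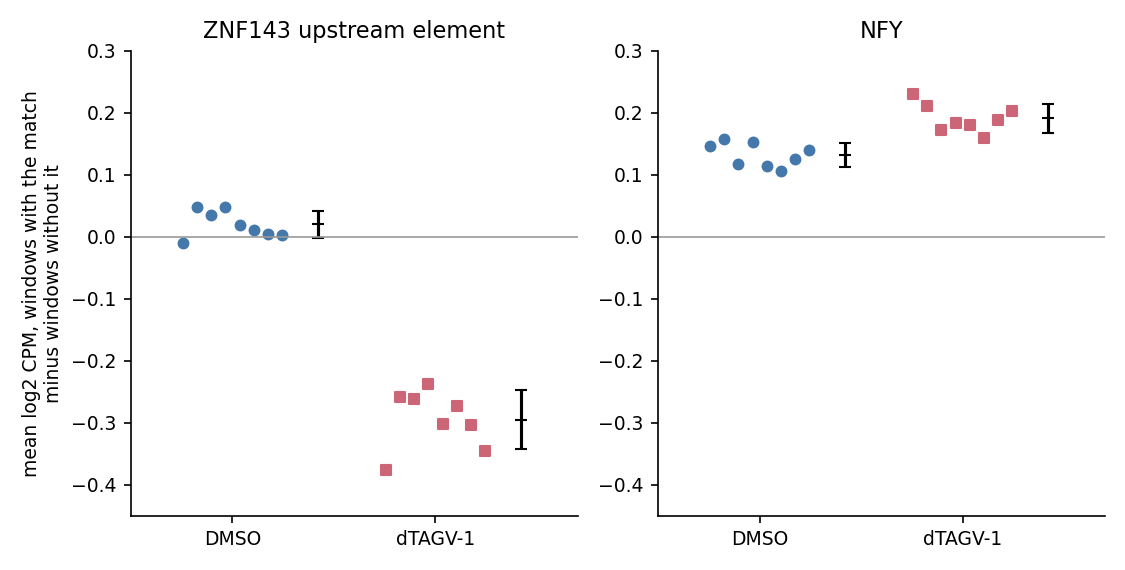
Mean log2 CPM of the windows that hold a motif minus that of the windows without it, among the strongest 1%, for each library, with the mean and SD of 8 libraries beside the points. For the upstream element of the ZNF143 site the dTAGV-1 libraries lie at -0.38 to -0.24 and the DMSO libraries at -0.01 to 0.05, and for NFY both groups lie above 0.

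DESI2, a deSUMOylating isopeptidase, was the strongest window with the ZNF143 core within 100 bp of the centre, and its whole window holds 3 copies of the upstream element and 2 of the core (chr1:244652673-244653073). Its DMSO libraries ranged from 65.0 to 175 CPM with a median of 145 CPM, and its dTAGV-1 libraries from 71.7 to 122 CPM with a median of 119 CPM. The 8 dTAGV-1 libraries lay under 7 of the DMSO libraries but not under DMSO replicate 12. The log2 fold change was -0.38 (SE 0.18), with an edgeR adjusted p of 1.0. Without DMSO replicate 12, when the median of all members was -0.08, it was -0.49 (edgeR adjusted p = 0.04), and with offsets fitted across abundance it was -0.35 (edgeR adjusted p = 1.3e-05). Without replicates 11 and 12 of both groups it was -0.38 (edgeR adjusted p = 4.09e-07). TLE4, which holds the upstream element and a CCAAT box, had a log2 fold change of -0.27 (SE 0.17, edgeR adjusted p = 1.0). It was -0.37 without DMSO replicate 12 (edgeR adjusted p = 0.199) and -0.31 without replicates 11 and 12 of both groups (edgeR adjusted p = 1.41e-06). ELOC, an adaptor of cullin ubiquitin ligases, and ENY2, a subunit of the SAGA complex, followed as the strongest windows with the core, with log2 fold changes of -0.14 (SE 0.17) and -0.27 (SE 0.17) that were not called. Without replicates 11 and 12 of both groups ENY2 was called at -0.31 (edgeR adjusted p = 0.000946).

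Called windows continued just under the edge of the set. The 5 nearest by rank were those of JOSD2, UBR2, AP2S1, RAB3C and ENSG00000286482, at ranks 2157 to 2330, with log2 fold changes of -1.09 to -0.59. All 5 held the upstream element within the window. In all, 360 of the 395 lower calls lay outside the strongest 1%. The other 8.86% lay within it, against the 1.15% of tested windows that the set makes up. The DMSO libraries chose the set and also enter the calls, so these shares are a description. Chosen by the dTAGV-1 libraries the strongest 1% held 5 lower calls, a share close to that over all tested windows. Chosen by all 16 libraries it held 17. With the DMSO choice, the share called lower was 1.65% of the members, 1.51% of the windows next in rank and 1.07% of ranks 4249 to 10618.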

How the data were processed

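ATAC-seq was analysed for 16 libraries of replicates 9 to 16 of the HEK293T clone, 8 in DMSO and 8 in dTAGV-1. The deposited table holds whole-number counts per window, not normalized, and the number of its columns left unused was 0. Its column of −log10 q values and the −log10 scores of the deposited summit list come from the authors' peak calling, and were used only to describe windows within their own list. Per the submitters' processing notes, cutadapt 1.8.1, Bowtie2 2.4.4, SAMtools 1.9 and hg38 were used. The counting tool, read filters and any Tn5 shift are not given in the sources used here.

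The main test was the quasi-likelihood test of edgeR 4.0.16 under R 4.3.3, after filterByExpr and TMM scaling, with no covariate, and Benjamini-Hochberg adjustment at 0.05 over 185040 windows. Standard errors came from the fitted test statistic. DESeq2 1.42.0, other scalings and omitted libraries were alternatives. CPM in the text are counts over the library total, log2 CPM used TMM scaling and a prior count of 2, and starts are from GENCODE release 44. Motifs were searched on both strands. The main test was checked on simulated counts with known changes. These were drawn for all libraries from a common mean profile with a fixed dispersion. The check therefore does not cover differences in profile between libraries, such as that of DMSO replicate 12. The windows named are the 10 strongest, the 2 on each side of the edge, the 10 called lower with the smallest p, the 3 strongest with the ZNF143 core, the 3 farthest from a start, the 5 called next below the edge and the 3 leading genes of each list, of which the first and those over 1 SD from the DMSO mean are given. Other called windows, among them CDK5, SLC35B4, SNAPC3, USP5, BANP and MARS1, were named after their values were seen. Gene lists follow symbol prefixes, from which RPS6K, EIF2AK and similar genes of other function were removed. The members, lists and motifs were chosen with earlier results of these data known, and the upstream element was added after the core had been searched. Some markers that were looked up are not reported here.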

Additional observations from a re-analysis of the deposited data

Results flagged for a closer look

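Dixon's limit for 8 values, which chance passes in about 1 group of 20, was applied to 42 groups of 8 libraries. The groups were the share of counts in the strongest windows, CPM at the 10 strongest windows and CPM at the 10 called lower with the smallest p. The other named windows were not examined in this way, so the counts do not cover them. In the groups examined, 15 values stood apart from the other 7 by more than this limit. The groups share the same libraries, so these values are not independent and that rate is no yardstick for their number. Of the 15 values, 13 were DMSO replicate 12 at the low end. Its share of counts was 7.35%, and its CPM was 136 at TLE4, 101 at PCDH9, 85.2 at BORA, 84.8 at BPGM, 64.6 at KLF5, 70.7 at ENSG00000291149, 94.0 at COQ8A and 65.0 at DESI2. Among the windows called lower it was 29.0 at CCDC163, 33.8 at IFRD2, 38.2 at ENSG00000254553 and 18.0 at the ENSG00000279539 window that starts at 42242615 on chromosome 19. This library was also the shallowest, with 2275856 counts and a median of 74 counts in a member window, and the part of its depth in these values was not tested. The other 2 values were dTAGV-1 replicate 9 at MYL11, high at 179.8 CPM, and dTAGV-1 replicate 12 at ENSG00000254553, high at 32.6 CPM.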

How the results depend on the processing

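Over all tested windows 397 were called, and 689 with offsets fitted across abundance, 753 with the replicate block, 781 without replicates 11 and 12 of both groups, and 344 to 632 when replicate 11 or 12 of either group was left out. Members called lower numbered 35, and 57 with DESeq2, 63 with library totals, 123 with the abundance offsets, 119 with the replicate block, 157 without replicates 11 and 12 of both groups, and 30 to 97 when replicate 11 or 12 of either group was left out, the 97 being without DMSO replicate 12. Chosen by the dTAGV-1 libraries or by all 16, the strongest windows held 5 and 17 lower calls. The number called higher was 0 in each of these fits. The main test did not pair same-numbered libraries of the groups, because the labels state no pairing. The correlation of their deviations was positive in all 8 pairs and ran from 0.028 to 0.336. It was over 0.1 in 5 of 8 pairs and was highest for the own number in 5 of 8. Whether same-numbered libraries share an effect was not tested, and the block is given only as an alternative fit. The members' median log2 fold change, 0.01, was -0.08 without DMSO replicate 12 and 0.06 without dTAGV-1 replicate 12. The share at a start was 82.7% within 200 bp and 94.6% within 1000 bp. The share with the ZNF143 core was 3.44% over the whole window, 0.80% within 50 bp, 3.91% for the looser core and 7.02% for the upstream element, the latter 2 added after seeing the data. Summits within 100 bp of the centre were in 95% of members. Of 270 single-window comparisons over 27 windows, 243 kept direction and side of the threshold. TLE4 and ENY2 passed it without replicates 11 and 12 of both groups, DESI2 in 4 alternatives, and AP2S1 missed it in 4. The 17 that reversed were changes near 0 at the strongest windows, called in no fit. With offsets fitted across abundance they were 0.0083 at BORA, 0.018 at KLF5 and 0.0051 at PDIA4, and without replicates 11 and 12 of both groups 0.013 at BORA. When replicate 11 or 12 of either group was left out, the log2 changes ran from -0.082 to 0.099 at PCDH9, -0.11 to 0.067 at BORA, -0.10 to 0.078 at BPGM, -0.14 to 0.063 at KLF5, -0.070 to 0.13 at ENSG00000291149, -0.12 to 0.071 at PDIA4, -0.064 to 0.074 at COQ8A and -0.092 to 0.017 at MYL11. Standard errors of the members ran from 0.13 to 0.22, with medians of 0.17 in the strongest 212 and 0.15 from rank 1063 to the edge, and the part of depth in them was not tested.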
